A study of Rattus norvegicus with 40 samples.

Results

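The comparison described here is ischemia+reperfusion at a labelled 120 min against ischemia+reperfusion at a labelled 0 min in cultured neonatal rat ventricular myocytes, heart muscle cells isolated from newborn rats. It took the 8 arrays whose titles carry those labels, 4 per group, out of 40 Affymetrix rat arrays of the whole series. Each group held 2 arrays (duplicates 1 and 2) from each of 2 cell preparations, numbered here as replicates 1 and 2 for preparation 1 and 3 and 4 for preparation 2. Ischemia was imposed by coverslip hypoxia, in which a coverslip placed on the cultured cells limits their access to oxygen and fresh medium. Both groups carried the reperfusion label, the 0 min group included. The labels give neither the length of reperfusion nor which step the minutes time, and they name no strain, genotype or drug. They also do not say whether duplicates were separate cultures. Duplicates were averaged before testing, so p-values measure only how unevenly the 2 preparations differed, pooled over the 10 groups of the series. The distance between the duplicates of a gene does not enter them directly, and the spread that does may be technical.

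When oxygen falls, the transcription factor HIF escapes degradation and raises genes for glycolysis, mitophagy and collagen hydroxylation. When oxygen and medium return, heart muscle cells face oxidants, misfolded protein and calcium overload, and such stress is known to raise heat shock, NRF2 and immediate early genes. Sterol synthesis uses oxygen at several steps, and its genes are driven by the transcription factor SREBP2 when cell sterol is low.

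After 120 min, targets of HIF, immediate early factors, interleukin 1 and chemokine genes, and single stress genes such as Hspa1a, Atf3 and Hmox1 were higher than at 0 min, while enzymes of sterol synthesis were lower. In all, 1336 of 18625 probe sets tested passed an adjusted p of 0.05 (limma's moderated test, Benjamini-Hochberg), which is 7.17%, with 651 higher and 685 lower. With each array centred on its median in place of quantile normalization, the split was 468 higher and 1205 lower. The test selects for probe sets that agree between preparations and separate the groups. Of the 1336 that it called, all moved the same way in both preparations. In 997 of these the 4 arrays of each group did not overlap. The same shares over all probe sets tested were not counted, so neither number is further support. Values below are log2(intensity + 16), changes are log2 differences with their standard error (SE) and n = 2 preparations in each group. Adjustment of p-values ran over every probe set tested. Counted once per gene on its brightest probe set, 350 of 10483 genes rose (3.34%) and 305 fell (2.91%). These shares are the background for the list counts below with all arrays in the main fit. Counts under other settings or in the other arm have other backgrounds, and not all of these were counted. The median change over all genes was -0.01. In a bulk sample of this kind, fewer cells of a type and less RNA per cell cannot be told apart.

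Of the 4 arrays at 120 min, preparation 2 duplicate 1 (replicate 3) stood apart. Its values, centred on each gene's mean, correlated at 0.44 with the 120 min ischemia group without reperfusion and at 0.14 with its own group, while replicates 1, 2 and 4 had 0.45, 0.40 and 0.21 with their own. In the ischemia arm, preparation 2 duplicate 2 at 120 min correlated at 0.29 with this arm at 60 min and at 0.10 with its own group. Among 20 probe sets chosen for the largest difference between the arms in preparation 1 alone, replicate 3 lay nearer to ischemia in 19, and the ischemia array of duplicate 2 lay nearer to ischemia+reperfusion in 15. Over 500 probe sets chosen the same way, these numbers were 388 and 360. Replicate 4 of ischemia+reperfusion was itself nearer to ischemia in 9 of 20 and 201 of 500, so it lay between the arms, and the remaining ischemia array of preparation 2 was nearer to ischemia in 18 and 381. For Pard6b, a cell polarity protein, the ischemia+reperfusion arrays held 10.57, 10.28, 8.51 and 10.41, and the ischemia arrays 8.81, 8.94, 8.92 and 10.36. Both arrays were kept under their labels, and results that rest on replicate 3 are given with and without it.

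**Figure D1:**
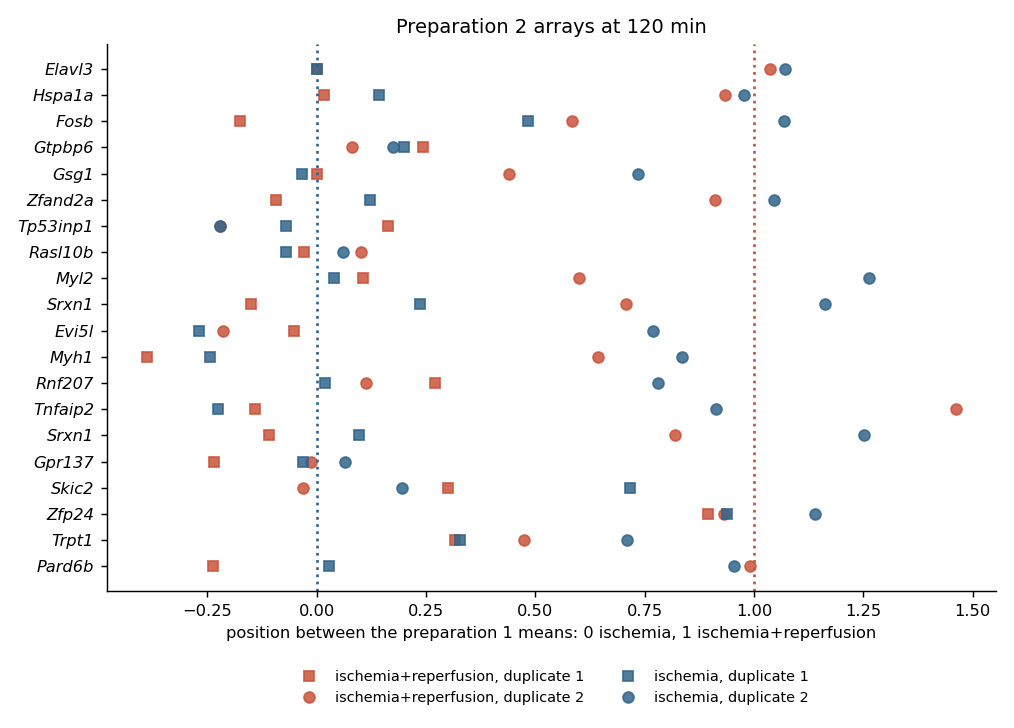
Position of the 4 preparation 2 arrays at 120 min for 20 probe sets (rows, by gene symbol), on a scale where 0 is the preparation 1 mean of ischemia and 1 that of ischemia+reperfusion; the probe sets were chosen in preparation 1 only, and Srxn1 has 2. Red squares (ischemia+reperfusion, duplicate 1) lay nearer to 0 in 19 of 20, and blue circles (ischemia, duplicate 2) lay nearer to 1 in 15 of 20.

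Leaving out replicate 3 gave 1415 calls, 736 higher and 679 lower. Of the 1336 calls, 991 remained in the same direction, 345 were lost, and 424 were gained. Per gene, 4.12% rose and 3.33% fell without it. Duplicates were averaged within preparation, so when an array was left out its duplicate stood alone for that preparation. Without replicate 4 at 120 min, preparation 2 was thus replicate 3 alone, the array that lay with the other arm. A call lost without replicate 4 therefore also reflects the added weight of replicate 3. Replicate 1 was nearest to the arm's 60 min group (0.45) and replicate 2 to ischemia at 120 min (0.43). All 4 arrays at 0 min correlated best with their own group, at 0.29 to 0.50.

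The identity of the cells was checked on markers. The 14 cardiomyocyte markers tested were bright on average. The mean log2 value over the 14 was 12.90 to 13.01 per array at 0 min and 12.91 to 13.08 at 120 min. Only Myh7 of these was called. The 15 fibroblast markers tested were also well detected on average, with means of 11.39 to 11.65 and 11.32 to 11.53. Of these 1, Tcf21, fell, a call lost without replicate 4 at 120 min or replicate 1 or 4 at 0 min. Endothelial markers were lower, at 8.06 to 8.40 at 0 min and 8.41 to 8.82 at 120 min, with a median change of 0.22 and 0 of 10 called, or 1 without replicate 3. Macrophage and leukocyte markers had 8.75 to 9.05 and 8.77 to 9.16, with 1 of 14, Mrc1, lower. Itgam and Cd163 of that list and Sox10 of the Schwann and neuronal list were at the floor on all 8 arrays, and 0 of 5 erythroid markers on the array were bright enough to be tested.

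Among the named genes above the floor on all 8 arrays, the largest change was that of Hspa1a, an inducible cytosolic heat shock protein that refolds damaged protein. It stood at 9.31, 9.26, 9.13 and 8.90 at 0 min and at 13.25, 13.21, 9.75 and 13.00 at 120 min. The groups did not overlap, but replicate 3 at 120 min lay close to the 0 min arrays and the other 3 lay far above. The change was 3.15 ± 0.59 (adjusted p = 0.0148, limma), 8.90-fold on the intensity + 16 scale. Without replicate 3 it was 3.96 (adjusted p = 0.00197), and without replicate 4 the call was lost (adjusted p = 0.11). The mean over the arm's times was 9.15 at 0 min, 9.29 at 10, 9.84 at 30, 12.95 at 60 and 12.30 at 120, so the level was already high at 60 min.

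Calls on the brightest probe set of other cytosolic heat shock members (Hsp70 proteins, Hsp40 partners and small heat shock proteins) depended on that array. With all arrays 2 of 20 tested members rose and 0 fell, with a median change of 0.18. The second was Hspa4l, an Hsp110-type partner of Hsp70, with 6.900, 6.873, 7.002 and 6.525 at 0 min and 7.443, 7.650, 7.091 and 7.417 at 120 min (change 0.58 ± 0.14, adjusted p = 0.0388, limma). Without replicate 3, 8 rose and 1 fell, and the median was 0.27. Without replicate 4, 0 rose, and the call of Hspa4l was also lost without replicate 4 at 0 min.

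The additional calls without replicate 3 were chosen after their values were seen. They were Hsph1, another Hsp110-type protein (0.75), Dnajb1, the main stress-induced Hsp40 (0.73), Bag3, a co-chaperone of Hsp70 in muscle (0.49), Dnajb4 (0.48), Dnaja1 (0.44) and the small heat shock protein Hspb1 (0.27). For Hsph1 this holds for its brightest probe set only, as its other tested probe set was called higher with all arrays. Dnajb6, an Hsp40, fell by 0.53. For Dnajb1 the 4 arrays at 120 min held 11.60, 11.67, 10.47 and 11.52 against a 0 min mean of 10.85, so 3 arrays were above that mean and replicate 3 was below it. Cryab, the abundant small heat shock protein of muscle, changed by -0.01 with adjusted p = 0.953. Of 17 Hsp90, chaperonin and mitochondrial chaperone genes tested, 0 were called with or without replicate 3.

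**Figure D2:**
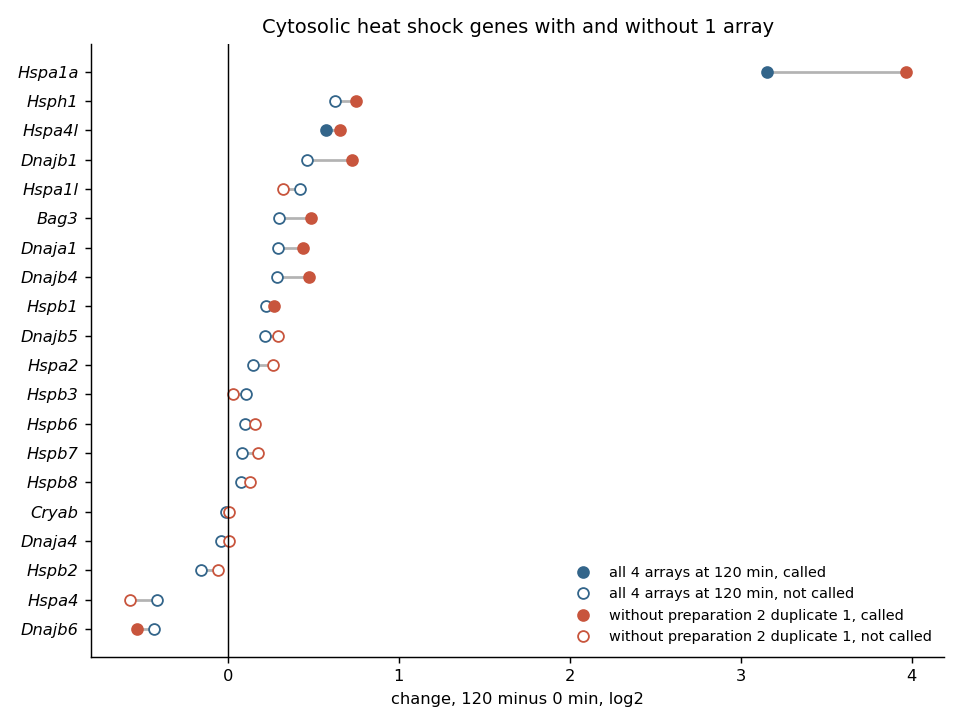
Change at 120 against 0 min (x axis, log2) of the 20 tested heat shock genes (rows), with all 4 arrays at 120 min (blue) and without preparation 2 duplicate 1 (red); filled points passed an adjusted p of 0.05. Filled blue points number 2 and filled red points 9, of which 8 lie above 0.

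The stress factor Atf3, a bZIP repressor raised by many kinds of cell stress, had 8.93, 9.03, 8.55 and 7.87 at 0 min and 12.01, 12.04, 10.69 and 11.84 at 120 min. Every 120 min array was above every 0 min array, and replicate 3 was again the lowest of its group. The change was 3.05 ± 0.43 (adjusted p = 0.00631, limma) and 3.34 without replicate 3, and the call held whichever of the 8 arrays was left out. Its mean was 8.38 at 10 min, 8.56 at 30 and 10.79 at 60. Of 25 genes of the integrated stress response tested, the pathway that slows translation and raises ATF4, 3 rose and 0 fell, with a median of 0.09. The other risers were Cebpb (0.53 ± 0.08), a bZIP factor, and Eif4ebp1 (0.30 ± 0.07), which restrains cap-dependent translation. Without replicate 3, 4 rose and 2 fell. Of 22 endoplasmic reticulum chaperones tested, only Dnajb9, a co-chaperone of BiP, rose (0.39 ± 0.10), and its call was lost without replicate 4 at 120 min or replicate 3 at 0 min; without replicate 3 at 120 min, 3 rose.

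Immediate early factors, genes transcribed within minutes of a stimulus, rose in 13 of 29 tested and fell in 0, with a median of 0.49. Without replicate 3, 17 rose, with a median of 0.57, and without replicate 4, 11 rose. On the deposited scale without normalization 4 rose, and without the preparation block 9 rose. Fos, the AP-1 subunit, stood at 8.83, 8.82, 8.58 and 8.79 at 0 min and 11.41, 11.34, 11.19 and 10.54 at 120 min. Here replicate 3 lay among the others and the groups were far apart, with a change of 2.37 ± 0.20 (adjusted p = 0.00179, limma), 5.15-fold.

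Fos rose late in the series of times: its means were 8.87 at 10 min, 8.92 at 30, 10.07 at 60 and 11.12 at 120. Egr1, a zinc finger factor of the same class, had 10.91, 10.85, 10.56 and 10.53 at 0 min and 11.91, 12.25, 11.72 and 11.69 at 120 min (change 1.18 ± 0.14, adjusted p = 0.00353, limma), with no overlap. Csrnp1, a nuclear protein induced with them, had a change of 1.36 ± 0.17. Its means climbed over every labelled time, 8.85, 9.18, 9.61, 9.99 and 10.21.

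Among the nuclear receptors of the list, Nr4a1 (1.01 ± 0.19), Nr4a2 (0.49 ± 0.11) and Nr4a3 (1.03 ± 0.25) rose, and for Nr4a2 the groups overlapped. Fosl1, a partner of Fos, rose to 9.64, 9.75, 8.50 and 8.46 at 120 min, high in preparation 1 and low in preparation 2, against 7.79 to 8.07 at 0 min. Junb rose by 0.80 ± 0.16 and Ier2 by 0.98 ± 0.17. Fosb changed by 2.67 and did not pass (adjusted p = 0.0654), with 5.87 on replicate 3 and 8.36 to 9.91 on the other arrays at 120 min; without replicate 3 it passed (3.29, adjusted p = 0.0126). The RNA-binding proteins Zfp36 (0.48 ± 0.08) and Zfp36l2 (0.64 ± 0.08), which speed the decay of AU-rich messages, also rose, as did Ier3 and Ier5. Single arrays carried some of these calls: Nr4a2 was lost without replicate 4 at 120 min or replicate 3 at 0 min, Ier5 without replicate 4 at 120 min, and Junb without replicate 3 at 0 min.

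Feedback inhibitors of growth factor signalling followed in smaller number. Of 11 MAP kinase phosphatases and Sprouty-type inhibitors tested, 2 rose and 0 fell: Dusp2, a nuclear phosphatase of ERK, at 7.46, 7.45, 7.09 and 6.99 against 9.06, 8.84, 8.25 and 8.15, and Errfi1, an inhibitor of the EGF receptor (0.56 ± 0.13). Dusp2 separated the groups fully, with a change of 1.33 ± 0.26 (adjusted p = 0.0181, limma). The call of Errfi1 was lost without replicate 3 (adjusted p = 0.0563). Of 12 Kruppel-like factors, Klf5 alone rose, by 1.48 ± 0.24, with 8.96 on replicate 3 and 9.98 to 10.51 on the other 120 min arrays; its call was lost without replicate 4 (adjusted p = 0.0794). Of 17 matricellular and growth factor genes tested, 5 rose and 0 fell, with a median of 0.25: Bdnf, a neurotrophin (1.16 ± 0.14), Il6, a cytokine (1.03 ± 0.23), Plaur, the urokinase receptor (1.01 ± 0.24), Xirp1, an actin-binding protein of the intercalated disc (0.78 ± 0.09), and Ereg, a ligand of the EGF receptor (0.54 ± 0.07). The calls of Il6 and Plaur were lost without replicate 2 and replicate 4 at 120 min, in that order.

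**Figure D3:**
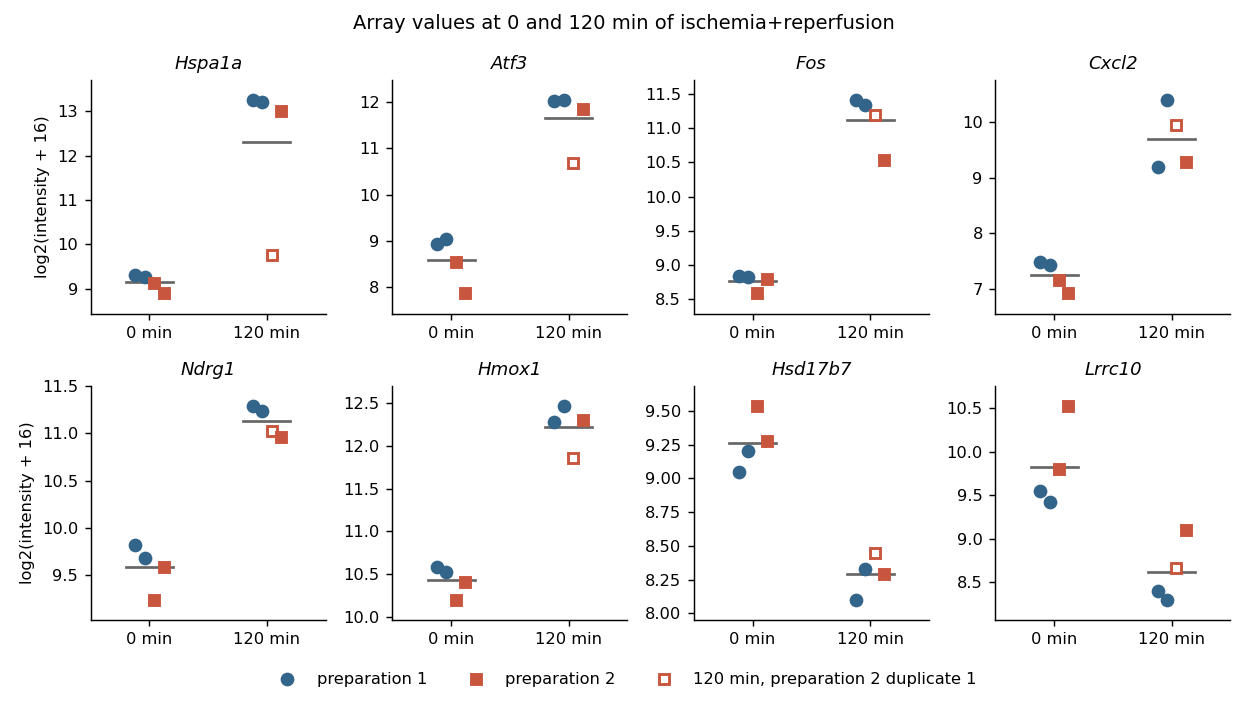
Value on each array, log2(intensity + 16) (y axes, each with its own range), of 8 genes at 0 and 120 min of ischemia+reperfusion (x axes); circles are preparation 1, squares preparation 2, the open square is preparation 2 duplicate 1 at 120 min and bars are group means. The groups did not overlap in any of the 8 genes, and the open square was far below the rest only for Hspa1a (9.75) and Atf3 (10.69).

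Inflammatory genes rose in equal number with and without replicate 3. Of 20 genes of the interleukin 1, chemokine, prostaglandin and adhesion list tested, 8 rose and 0 fell with all arrays, and 8 rose without replicate 3, with medians of 0.35 and 0.33. Without the preparation block 5 rose. The neutrophil chemokine Cxcl2 had 7.48, 7.42, 7.17 and 6.92 at 0 min and 9.19, 10.39, 9.94 and 9.27 at 120 min, a change of 2.45 ± 0.24 (adjusted p = 0.00187, limma), 5.47-fold. Il1b, the secreted interleukin 1 beta, had 6.72, 6.78, 6.86 and 6.80 against 8.10, 9.47, 8.67 and 8.92, a change of 2.00 ± 0.19 (adjusted p = 0.00187, limma). In both genes the 0 min arrays were tight and the 120 min arrays more spread, with replicate 3 inside the spread.

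Both genes climbed through the labelled times: Cxcl2 had means of 8.44 at 10 min, 8.82 at 30 and 9.06 at 60, and Il1b 7.14, 7.39 and 7.64. Ptgs2, the inducible cyclooxygenase, rose by 1.48 ± 0.15, and Ptges, the prostaglandin E synthase that acts after it, by 1.29 ± 0.23. Il1a rose by 1.07 ± 0.15. The macrophage chemokines Ccl3 (0.54 ± 0.10) and Ccl4 (1.07 ± 0.24) overlapped between the groups, and both calls were lost without replicate 4 (adjusted p = 0.111 and 0.269). The neutrophil chemokine Cxcl1 was the eighth, and its call was lost without replicate 2 or 3 at either time. Of the macrophage and leukocyte markers, 0 of 14 rose, and the part of such cells in the cytokine changes was not tested.

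Of 15 NF-kB subunits and feedback inhibitors tested, 5 rose and 0 fell (median 0.33), 6 without replicate 3 and 3 without replicate 4. Nfkbia, the inhibitor that returns NF-kB to the cytoplasm, had 9.34, 9.37, 9.15 and 9.26 against 10.50, 10.84, 10.45 and 10.36, with every 120 min array about the same distance above the 0 min arrays (change 1.26 ± 0.13, adjusted p = 0.00187, limma). Tnfaip3, a deubiquitinase that ends the signal, rose by 1.34 ± 0.30, Nfkbiz by 0.71 ± 0.17, Zc3h12a, an RNase that degrades cytokine messages, by 0.64 ± 0.11 and the subunit Relb by 0.51 ± 0.14. Tnfaip3 lost its call without replicate 4 at 120 min, and Relb without that array or replicate 2 or 4 at 0 min. Serpinb2, the inhibitor of urokinase and among the 15 largest rises, stood at 9.59, 9.67, 9.89 and 9.49 against 11.93, 12.19, 11.17 and 11.78 (change 2.11 ± 0.29, adjusted p = 0.00567, limma).

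HIF targets outside glycolysis formed the list with the most rises: 16 of 32 tested rose, 0 fell, and the median was 0.78. Without replicate 3, 15 rose, with a median of 0.75. Without the preparation block 8 rose, and on the deposited scale 4. Ndrg1, a hypoxia- and stress-induced cytoplasmic protein, had 9.82, 9.68, 9.24 and 9.59 at 0 min and 11.29, 11.24, 11.03 and 10.96 at 120 min (change 1.54 ± 0.37, adjusted p = 0.0339, limma). Bnip3, a mitophagy receptor, had 11.73, 11.63, 11.59 and 11.35 against 12.51, 12.49, 12.85 and 12.80 (change 1.09 ± 0.25, adjusted p = 0.0281, limma). In both, all 120 min arrays lay above all 0 min arrays, and replicate 3 was not set apart.

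The adenylate kinase of the mitochondrial matrix, Ak4, had 7.46, 6.88, 6.31 and 4.14 at 0 min and 8.53, 8.93, 9.18 and 8.69 at 120 min, so the 0 min arrays were scattered and the 120 min arrays tight (change 2.64 ± 0.65, adjusted p = 0.0369, limma). Its call was lost without replicate 2 at 0 min (adjusted p = 0.0516). Mgarp, a protein of mitochondrial transport, was at the floor (a quantile-normalized intensity of 0 or less) on all 4 arrays at 0 min. At 120 min it stood at 8.27, 7.72, 8.59 and 8.28, and because of the floor no fold is given. Its adjusted p of 0.0476 became 0.0544 without replicate 1 at 120 min and 0.0537 without replicate 3 at 0 min.

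Promoters of these 2 genes, the members with the largest change that the promoter table holds, are shown here because they carry the HIF core in different forms and places. They span 250 bases before to 50 after the gene start in RefSeq (GRCr8), on the gene's strand, and capitals mark ACGTG or GCGTG on either strand, where matches of the 2 forms may overlap.
Mgarp, chr2:137590245-137590544, minus strand: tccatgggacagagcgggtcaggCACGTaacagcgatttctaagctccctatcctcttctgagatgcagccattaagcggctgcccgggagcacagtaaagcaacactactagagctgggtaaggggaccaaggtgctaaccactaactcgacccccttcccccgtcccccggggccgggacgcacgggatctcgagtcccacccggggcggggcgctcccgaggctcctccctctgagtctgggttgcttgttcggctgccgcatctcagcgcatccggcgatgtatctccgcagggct
Ak4, chr5:121154886-121155185, plus strand: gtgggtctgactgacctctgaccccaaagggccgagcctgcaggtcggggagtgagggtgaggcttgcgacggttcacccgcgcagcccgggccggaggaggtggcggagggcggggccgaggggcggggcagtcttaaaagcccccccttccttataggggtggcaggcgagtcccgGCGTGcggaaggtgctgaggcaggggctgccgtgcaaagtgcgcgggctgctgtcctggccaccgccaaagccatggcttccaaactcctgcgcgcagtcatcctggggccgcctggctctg
Counting the start as 0, the A form (ACGTG) began at -227 in Mgarp and the G form (GCGTG) at -72 in Ak4. Of the 16 HIF targets that rose, 13 had a promoter in the table, and 9 of these held the A form and 8 the G form. Of 12 members that did not pass, 9 held the A form and 7 the G form. Among all 27457 promoters, 19.7% held the A form and 31.1% the G form. A match is a description of letters, not of binding.

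The other risers of the HIF list fell into known roles. Collagen-modifying enzymes rose: the prolyl hydroxylase subunits P4ha1 (0.83 ± 0.16) and P4ha2 (0.78 ± 0.13), the lysyl hydroxylases Plod1 (0.90 ± 0.19) and Plod2 (0.34 ± 0.08) and the lysyl oxidase Loxl2 (0.96 ± 0.20). Vegfa, the vascular growth factor, had 11.50, 11.29, 11.48 and 11.54 against 12.26, 12.21, 12.45 and 12.24, tight in both groups (change 0.84 ± 0.17, adjusted p = 0.0178, limma). Ddit4, an inhibitor of mTORC1, was highest on replicate 3, with 10.63 to 11.22 on the other 120 min arrays and 9.71 to 9.95 at 0 min; its change was 1.31 ± 0.27, and 0.96 without replicate 3. Pdk1, the kinase that closes pyruvate dehydrogenase, rose on 2 probe sets (1.17 ± 0.32 and 1.86 ± 0.49). Egln3, the HIF prolyl hydroxylase, rose by 0.85 ± 0.22, Bnip3l by 0.79 ± 0.21, and Cited2, an inhibitor of HIF at its coactivator, by 0.52 ± 0.10. Plod2 lost its call without replicate 3 (adjusted p = 0.104), Egln3 without replicate 4 at 0 min, and Bnip3l and both probe sets of Pdk1 without replicate 1 at 120 min. Bnip3l and the brighter Pdk1 probe set also lost it without replicate 2 or 3 at 0 min, and the latter without replicate 4 at 120 min.

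For HIF targets the median change was about as large at 10 min as at 120 min. It was 0.69 at 10 min, 0.73 at 30 and 0.70 at 60, against 0.78 at 120, all against the same 0 min arrays. Ndrg1 had means of 9.58 at 0 min and 11.25, 11.22, 11.00 and 11.13 from 10 to 120 min, and Vegfa 11.45 and then 12.20, 12.26, 12.28 and 12.29. Glycolytic genes were fewer among the calls. With only the groups compared in the fit, 7 of 23 tested rose, against 22 HIF targets, and without single arrays 2 to 4 rose. In the main fit, 2 of the 23 rose and 0 fell, with a median of 0.17. These were Slc16a3, the lactate exporter MCT4, at 11.19, 11.18, 11.09 and 10.20 against 12.15, 12.01, 12.37 and 12.01 (change 1.22 ± 0.22, adjusted p = 0.0138, limma), and Pfkl, the liver-type phosphofructokinase (1.15 ± 0.25). In Slc16a3 the groups were apart, and replicate 4 at 0 min was the lowest. Pygl, the glycogen phosphorylase of liver, and Ndufa4l2, a HIF-induced mitochondrial protein, were among the largest rises, at 2.05 ± 0.40 and 2.41 ± 0.63, the latter call being lost without replicate 1 at 120 min or replicate 2 at 0 min.

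**Figure D4:**
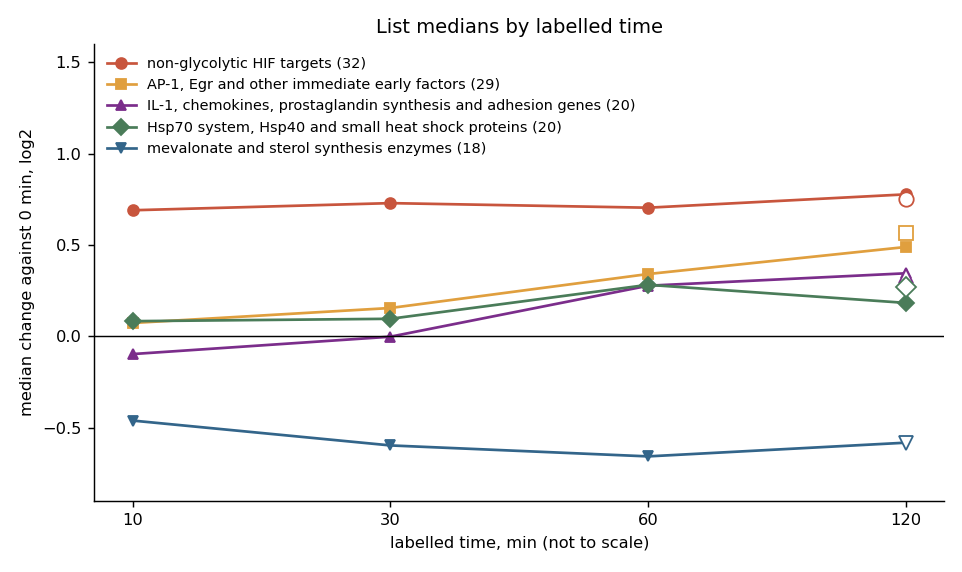
Median log2 change against 0 min (y axis) of the tested members of 5 gene lists (number in brackets) at 4 labelled times (x axis, equally spaced); open symbols are 120 min without preparation 2 duplicate 1, and no test was made on the medians. HIF targets lay at 0.69 to 0.78 and sterol enzymes at -0.46 to -0.66 at every time, while immediate early factors went from 0.07 at 10 min to 0.49 at 120 min.

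Of 18 NRF2 targets and metallothioneins tested, 4 rose and 1 fell, with a median of 0.16, and 6 rose without replicate 3. Hmox1, the heme oxygenase that degrades heme, had 10.59, 10.53, 10.21 and 10.41 at 0 min and 12.28, 12.46, 11.85 and 12.30 at 120 min (change 1.79 ± 0.32, adjusted p = 0.0135, limma). The metallothionein Mt2A, a zinc-binding scavenger, had 11.12, 11.07, 10.78 and 10.85 against 12.77, 12.66, 12.36 and 12.83 (change 1.70 ± 0.36, adjusted p = 0.0221, limma). Neither gene overlapped between the groups. Hmox1 was at 12.03 by 10 min, 12.41 at 30 and 12.44 at 60, and Mt2A at 11.90, 12.23 and 12.41. Tkt, the transketolase of the pentose phosphate pathway, rose by 0.47 ± 0.08 and the quinone reductase Nqo1 by 0.53 ± 0.09, while the glutathione transferase Gsta4 fell by 0.46, a call lost without replicate 1 or 3 at 120 min or replicate 3 at 0 min. Srxn1, the sulfiredoxin that repairs peroxiredoxins, was among the probe sets used for the array check: it had 10.43, 10.25, 8.18 and 9.79 at 120 min, with replicate 3 far below the others. Of 17 superoxide and peroxide scavengers 0 were called, or 1 without replicate 3.

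Sterol synthesis was the one list in which every member was below 0. Of 18 enzymes tested 12 fell and 0 rose, and the median was -0.58. Without replicate 3, 13 fell, with the median at -0.59, and on the deposited scale 11 fell. Without the preparation block 3 fell. Hsd17b7, which reduces a sterol ketone, stood at 9.05, 9.20, 9.54 and 9.28 at 0 min and 8.10, 8.33, 8.45 and 8.29 at 120 min (change -0.97 ± 0.13, adjusted p = 0.00449, limma). The other tested probe set of Hsd17b7 was not called. Mvd, the decarboxylase that makes isopentenyl diphosphate, had 8.73, 8.87, 9.21 and 9.05 against 8.09, 7.98, 7.96 and 7.95 (change -0.97 ± 0.16, adjusted p = 0.0115, limma). The groups were apart in both, with preparation 2 the higher at 0 min.

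The falls ran along the whole pathway. At its start, Acat2 (-0.78 ± 0.13), the thiolase, and Mvk, the mevalonate kinase, fell, the latter on 2 probe sets (-0.68 ± 0.15 and -0.97 ± 0.14). In its middle, Idi1 (-0.78 ± 0.14), the isomerase, Fdps (-0.44 ± 0.07), the farnesyl diphosphate synthase, and Fdft1 (-0.58 ± 0.09), the squalene synthase, fell. Sqle, the oxygen-using squalene epoxidase, had 11.08, 11.27, 11.57 and 11.67 at 0 min and 10.56, 10.82, 10.74 and 10.92 at 120 min (change -0.63 ± 0.08, adjusted p = 0.00449, limma). After the ring closure, Lss (-0.59 ± 0.11), Tm7sf2 (-0.66 ± 0.12), Sc5d (-0.50 ± 0.07) and Dhcr7 (-0.59 ± 0.08) fell. Tm7sf2 and Lss overlapped between the groups, as replicate 3 at 120 min lay above the lowest 0 min arrays of preparation 1, and Lss lost its call without replicate 4 at 120 min. Cyp51 (-0.51), Msmo1 (-0.35), Ebp (-0.31), Pmvk (-0.29), Nsdhl (-0.23) and Ggps1 (-0.16) did not pass on their brightest probe set, with adjusted p from 0.0502 to 0.172. A second probe set of Nsdhl fell by 0.96, so its probe sets disagreed, and that call was lost without replicate 4 at 120 min.

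The time course of these enzymes was early as well: the list's median was -0.46 at 10 min, -0.60 at 30 and -0.66 at 60. Hsd17b7 had means of 9.26 at 0 min and 8.62, 8.42, 8.24 and 8.29 after, and Idi1 11.52 and then 10.69, 10.64, 10.65 and 10.73. The regulators of the pathway moved less. Of 20 SREBP regulators, lipid uptake and lipogenesis genes tested, 1 rose and 1 fell: Insig1, which holds SREBP in the endoplasmic reticulum and is itself an SREBP target, changed by -0.47 ± 0.11, and Abca1, the cholesterol exporter, by 0.57 ± 0.12. Each call was lost without a single 0 min array, Insig1 without replicate 2 (adjusted p = 0.0541) and Abca1 without replicate 3 (adjusted p = 0.063).

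The promoters of the 2 sterol enzymes with the largest falls in the table are shown because both hold CCAAT boxes, the site of NF-Y, a factor known to act with SREBP. Capitals mark CCAAT on either strand (RefSeq, GRCr8, gene strand).
Hsd17b7, chr13:84722705-84723004, minus strand: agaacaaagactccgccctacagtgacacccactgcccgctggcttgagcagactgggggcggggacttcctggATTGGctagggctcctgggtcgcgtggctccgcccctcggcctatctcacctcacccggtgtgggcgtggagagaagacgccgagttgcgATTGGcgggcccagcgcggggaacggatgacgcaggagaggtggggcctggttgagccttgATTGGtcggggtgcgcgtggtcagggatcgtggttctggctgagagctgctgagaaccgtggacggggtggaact
Mvd, chr19:67414925-67415224, minus strand: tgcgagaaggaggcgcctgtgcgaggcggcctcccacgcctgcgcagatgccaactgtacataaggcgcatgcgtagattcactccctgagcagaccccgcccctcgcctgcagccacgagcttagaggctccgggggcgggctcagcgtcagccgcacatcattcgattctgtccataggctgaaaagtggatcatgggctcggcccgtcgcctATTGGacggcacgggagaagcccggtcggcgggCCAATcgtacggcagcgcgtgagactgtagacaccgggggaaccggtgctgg
Hsd17b7 held 3 matches and Mvd 2 within 300 bases. Of the 10 enzymes that fell and had a promoter, 8 held CCAAT, as did 4 of 5 that did not pass, against 37.7% of all promoters. A sterol regulatory element core, TCACNCCAC, was in 0 of the 10 and 0 of the 5, and in 1.13% of all promoters. For other lists, the heat shock element core GAANNTTC was in 0 of 2 called and 8 of 15 not called heat shock members, against 8.34% of all. That split is the one with all arrays. Of the 8 holders, Hsph1, Hspb1, Dnajb1, Bag3 and Dnaja1 were called as rises and Dnajb6 as a fall without replicate 3. The CArG box, the site of serum response factor, was in 2 of 9 called immediate early genes, Egr1 and Zfp36, and in 2 of 13 not called, against 1.64% of all.

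Fuel genes of the mitochondria changed at single points. Of 29 fatty acid oxidation and ketone genes tested, 2 rose and 0 fell, with a median of 0.03. Angptl4, a secreted inhibitor of lipoprotein lipase, had 7.44, 7.67, 7.36 and 7.32 against 8.96, 9.07, 9.28 and 8.90, well separated (change 1.61 ± 0.18, adjusted p = 0.00338, limma). Pdk4, which spares glucose by closing pyruvate dehydrogenase, rose by 1.00 ± 0.23 from a course that first went down: its means were 8.55, 7.90, 7.59, 8.75 and 9.55 from 0 to 120 min. The call of Pdk4 was lost without replicate 4 (adjusted p = 0.0829). Of 39 respiratory chain and ATP synthase subunits tested, 0 were called, with a median of -0.05.

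Contractile genes were mostly level. Of 30 sarcomere and Z-disc genes tested, 2 rose and 1 fell, with a median of 0.01. Klhl40, a muscle Kelch protein that stabilises thin filament proteins, had 6.48, 5.49, 4.60 and 6.12 against 8.89, 8.28, 7.19 and 8.76, with replicate 3 again the lowest at 120 min (change 2.60 ± 0.53, adjusted p = 0.02, limma). Its call was lost without replicate 4 (adjusted p = 0.0518). Lrrc10, a cardiac Z-disc protein, had 9.55, 9.42, 9.80 and 10.52 against 8.40, 8.30, 8.67 and 9.10, a fall on every array (change -1.20 ± 0.25, adjusted p = 0.0221, limma). It was at 8.68 by 10 min. Myh7, the slow myosin heavy chain, rose by 0.32 ± 0.08, and the call was lost without replicate 2 or replicate 4 at 0 min.

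Of 15 natriuretic peptide and cardiac transcription factor genes tested, 2 fell and 0 rose. Hopx, a homeodomain cofactor, fell by 0.52 with groups apart, at 11.25, 11.37, 11.56 and 11.35 against 10.87, 10.91, 10.90 and 10.79. Nkx2-5, the cardiac homeobox factor, changed by -0.29 ± 0.08 with overlapping groups, and its adjusted p of 0.0409 became 0.225 without replicate 3; the call was also lost without replicate 2 at 120 min or replicate 1 at 0 min. Of 23 calcium handling and adrenergic genes, Gem, a small GTPase that inhibits L-type calcium channels, alone rose: 8.09, 8.61, 8.20 and 8.74 against 9.83, 10.25, 9.51 and 9.67 (change 1.41 ± 0.23, adjusted p = 0.00993, limma). Of 18 potassium and sodium channels tested, Kcnk3, a 2-pore potassium channel inhibited by acid, alone rose, from 7.96, 8.15, 7.87 and 8.41 to 9.10, 9.20, 9.19 and 9.34 (change 1.11 ± 0.16, adjusted p = 0.00752, limma).

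G protein genes went both ways, with 4 of 18 up and 3 down. Rgs4 (1.24 ± 0.23), Rgs16 (0.98 ± 0.12) and Rgs2 (0.88 ± 0.14), which end signals of Gq and Gi, rose, as did Gng11 (0.54 ± 0.13). Gnaq, the alpha subunit of Gq, changed by -1.56 ± 0.36, with 6.62, 7.05, 7.54 and 7.20 against 4.60, 4.95, 6.69 and 5.91, so at 120 min only replicate 3 lay within the 0 min range. The values of 4.60, 4.95 and 5.91 lay below 6.48, the mean level needed for testing. The size of the Gnaq change rests on these dim values. Rgs6 (-0.96 ± 0.25) and Rgs19 (-0.49 ± 0.13) also fell. Without replicate 3, 3 rose and 1 fell, the calls of Gng11, Rgs6 and Rgs19 being lost, as they also were without single 0 min arrays, and without replicate 4 that of Gnaq was lost (adjusted p = 0.0716).

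Clock genes rose in 5 of 13 tested, with a median of 0.33, and 2 did without the preparation block. Per2, a repressor of the circadian clock, had 8.91, 8.12, 8.34 and 6.83 against 9.50, 9.49, 8.95 and 8.71, so the groups overlapped while each preparation rose (change 1.11 ± 0.18, adjusted p = 0.01, limma). Its means were 8.79 at 10 min, 8.29 at 30 and 8.26 at 60, so the level at 120 min did not continue a steady climb. Cry2 (0.66 ± 0.14), Cry1 (0.44 ± 0.10), Nfil3 (0.54 ± 0.14) and Bhlhe40 (0.58 ± 0.15) were the others, and without replicate 4 at 0 min 3 rose. Bhlhe40 lost its call without replicate 3 at 120 min or replicate 4 at 0 min, Nfil3 without replicate 4 at either time, and Cry1 without replicate 4 at 120 min.

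Of 11 growth arrest and p53 targets tested, 3 rose and 0 fell: Gadd45b (1.08 ± 0.22), Gadd45g (0.66 ± 0.14) and Cdkn1a (0.52 ± 0.14), the inhibitor p21, whose call was lost without any of 4 arrays (replicates 1 and 4 at 120 min, 2 and 3 at 0 min). Without replicate 3, 5 rose. Of 31 cell cycle and DNA replication genes, 4 fell and 0 rose, with a median of -0.21: Aurka, the mitotic kinase, at 8.49, 8.77, 8.85 and 8.56 against 7.99, 8.10, 7.87 and 8.04 (change -0.67 ± 0.14, adjusted p = 0.0204, limma), the cyclins Ccnb1 (-0.59 ± 0.12) and Ccnb2 (-0.29 ± 0.07), and the kinase Cdk2 (-0.43 ± 0.10). Without replicate 3 at 120 min 9 fell, without replicate 3 at 0 min 1 fell, and without replicate 4 at 0 min 10 fell. Kif2c, a mitotic kinesin outside that list, was among the largest falls at -1.20 ± 0.15 (7.98, 8.15, 8.31 and 7.57 against 7.04, 6.47, 7.09 and 6.60). Of 29 splicing factors and hnRNP proteins tested, 3 rose and 1 fell: the kinases Clk4 (0.55 ± 0.07) and Clk1 (0.48 ± 0.09), which phosphorylate SR proteins, and Srsf5 (0.40 ± 0.07) rose, and Srsf1 fell by 0.27, a call lost without replicate 4 at 120 min or replicate 3 at 0 min.

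**Figure D5:**
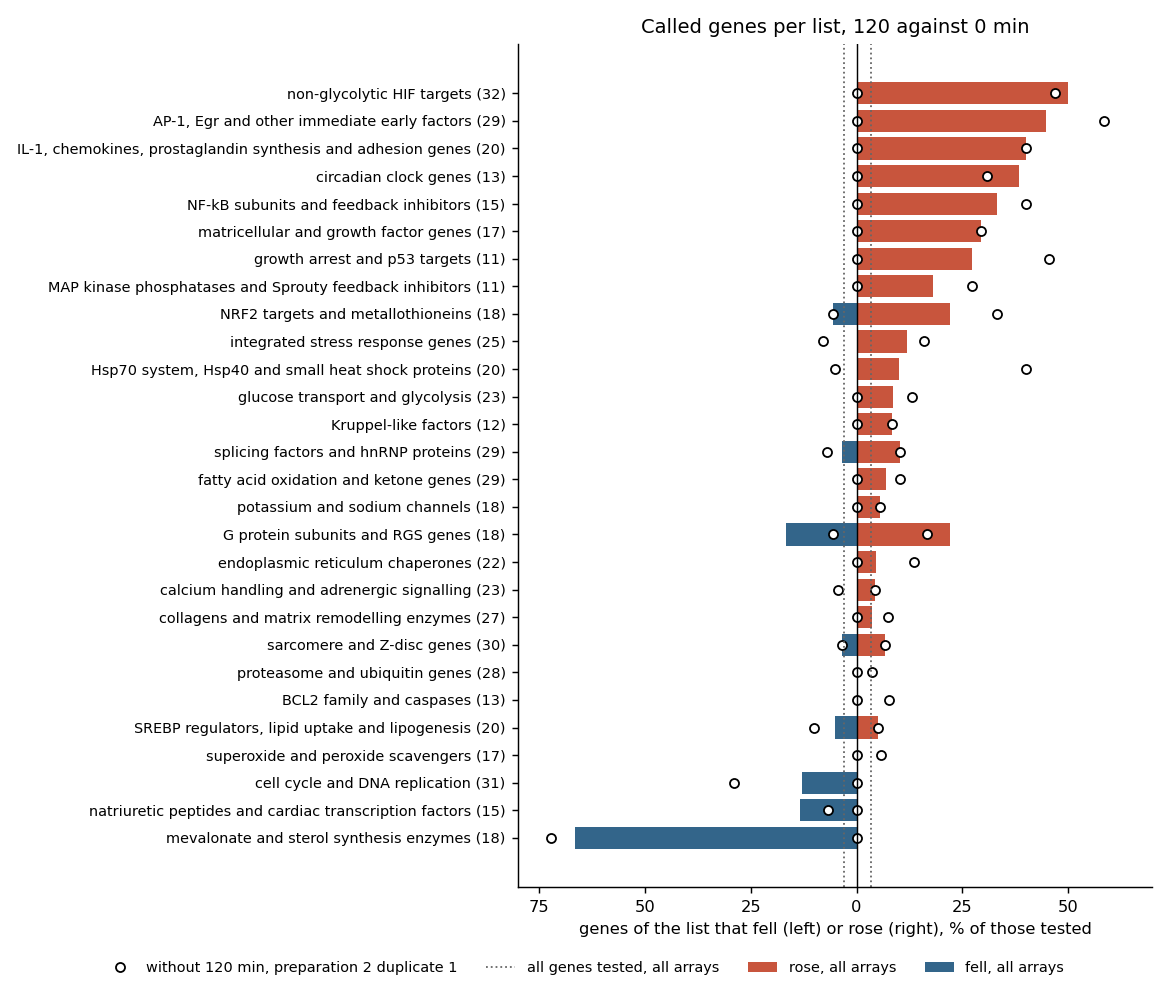
For lists with any call, the share of each list's tested genes (number in brackets) that rose (right, red) or fell (left, blue) at an adjusted p of 0.05 at 120 against 0 min; open circles are the shares without preparation 2 duplicate 1, and dotted lines the shares over all genes tested, 3.34% up and 2.91% down. HIF targets (16 of 32) and immediate early factors (13 of 29) reach farthest right and sterol enzymes (12 of 18) farthest left, and the heat shock list moves most between bar and circle (2 against 8 of 20).

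Several of the largest falls rested on few arrays. Clu, the secreted chaperone clusterin, had 8.65, 4.01, 8.48 and 6.51 at 120 min against 7.73 to 8.81 at 0 min, so the arrays at 120 min disagreed. Its change of -1.48 ± 0.32 lost its call without replicate 2 (adjusted p = 0.736) or replicate 4 (adjusted p = 0.178). Rogdi (-1.15), Pdf, the mitochondrial peptide deformylase (-1.04), and Bpgm, which makes the phosphate ester that lowers hemoglobin's oxygen affinity (-1.04), lost their calls without replicate 3, at adjusted p of 0.081, 0.0849 and 0.136. The other tested probe set of Clu and that of Bpgm were not called. Trpc6, a receptor-operated cation channel, fell on every array, from 8.47, 8.60, 8.37 and 8.48 to 7.46, 7.39, 7.73 and 7.30 (change -1.01 ± 0.22, adjusted p = 0.0266, limma). Of the 129 probe sets named by rule that passed, 77 passed whichever of the 8 arrays was left out. At 120 min, 8, 5, 12 and 26 calls were lost without replicates 1 to 4 in turn, and at 0 min 2, 11, 17 and 8. The 26 lost without replicate 4 came from a fit in which replicate 3 alone stood for preparation 2 at 120 min.

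Within the arm, no probe set passed between 120 and 60 min with limma (0 of 18625; lowest adjusted p 0.0507), while 2065 had an unadjusted p under 0.05. With the duplicates as a random block, 59 passed. Fos was 1.051 higher at 120 than at 60 min (adjusted p = 0.182), Il1b 1.15 higher (adjusted p = 0.158), and Hspa1a 0.65 lower (-0.65, adjusted p = 0.741). A p that misses the threshold does not show that the 2 times were alike.

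The change from 0 to 120 min was then set against the same change in the arm without reperfusion. The difference of the changes passed for 0 of 18625 probe sets (limma; lowest adjusted p 0.0575; 1944 with an unadjusted p under 0.05). Hspa1a changed by 3.15 ± 0.59 with reperfusion and by 1.498 ± 0.587 without (adjusted p = 0.109 for the latter), a difference of 1.66 ± 0.83 (adjusted p = 0.512). The ischemia arrays at 120 min held 9.756, 9.624, 10.194 and 13.145, so preparation 2 duplicate 2 carried much of that arm's change, which was 0.76 without it. Fos changed by 2.37 and 2.83, Cxcl2 by 2.45 and 2.93, Il1b by 2.00 and 2.17 and Hmox1 by 1.79 and 1.93. For the sterol enzymes, 12 of 18 fell with reperfusion and 1 without, with medians of -0.58 and -0.18. In the same order, HIF targets rose in 16 and 16 and immediate early factors in 13 and 15. The interleukin 1 and chemokine list rose in 8 and 10. Over all genes, 11.3% were called in the arm without reperfusion, against 3.34% up and 2.91% down with it. The counts of the 2 arms thus have unlike backgrounds. Part of the sterol difference lay at 0 min. There, ischemia+reperfusion minus ischemia was 0.40 for Hsd17b7, 0.27 for Mvd and 0.07 for 1 Mvk probe set. At 120 min it was -0.25, -0.26 and -0.24. Sqle changed by -0.63 with reperfusion and by -0.00 without, with a difference of -0.63 ± 0.12 that did not pass (adjusted p = 0.139).

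Without the 2 arrays that lay with the opposite arm, 123 of 18625 probe sets differed between the arms (0.66%), 87 higher and 36 lower. Those arrays were singled out because they resembled the other arm, so their removal widens the difference by construction and this count is a description only. Among the larger differences were Hspa1a (3.20), Zfand2a, a zinc finger protein induced with heat shock proteins (2.16), and Klf5 on another probe set (1.55). Ecpas, a proteasome adaptor (-1.91), and Cebpd, a bZIP factor (-1.37), lay lowest. At 0 min their means were already higher in the ischemia+reperfusion arm, by 0.72 and 0.62. With all arrays, Cebpd changed by -0.16 in the ischemia+reperfusion arm (adjusted p = 0.668, limma). Of the 5 other Ecpas probe sets tested, 0 were called lower at 120 than at 0 min.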

How the data were processed

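For each of 40 arrays the authors deposited linear intensity values per probe set. Of these values 15.8% were below 0, and no source used here names the algorithm or scaling that made them. Array medians ran from 101 to 171. RNA came from spin columns and was labelled as biotinylated cRNA, per the labels' protocols. Of 31042 probe sets, 20826 had 1 gene symbol (14217 genes), 436 several and 9780 none in the platform annotation, and 20758 symbols were updated or kept through the gene ID. The probe sets of a gene were represented by the brightest.

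Values were quantile-normalized, set to a floor of 0, and transformed as log2(intensity + 16), so changes of dim probe sets are understated. Probe sets with a mean above the 40th percentile (6.48) were tested, 18625 in all, 14311 of them named. Duplicates were averaged within group and preparation, giving 20 values over 10 groups, which lmFit and eBayes of limma 3.58.1 (R 4.3.3) fitted with a block for preparation (9 residual degrees of freedom, prior 2.27, median SE 0.12, 95% half-width 0.26). The number of arrays limits this precision. The block rests on the titles, where every group has a 1st and a 2nd preparation. Between the 0 and 120 min groups, the differences of preparation 2 from 1 correlated at 0.28.

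The members, the 39 gene lists (852 genes, 713 tested) and the naming rule were chosen with earlier results of these data known. Named genes were the 15 largest rises and 15 largest falls with a higher group mean of at least 8, per list the 4 smallest p-values and every called member, and the 8 largest differences between the arms in each direction. Promoters are RefSeq (GRCr8), and that of Egr1 is not printed. The alternatives tried are given in the closing section.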

Additional observations from a re-analysis of the deposited data

Results flagged for a closer look

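Among 258 groups of 4 arrays of the named genes, 13 held an array whose gap to its nearest neighbour exceeded Dixon's limit. Chance flags about 1 in 20 groups, so the total is about the number that chance gives. All 13 flagged arrays were of preparation 2 and none of preparation 1, and this uneven spread was not tested. At 120 min, preparation 2 duplicate 1 (replicate 3) was set apart in 4 genes. It was low for Hspa1a (9.754, others 12.996 to 13.250) and Atf3 (10.685, others 11.844 to 12.036) and high for Junb (10.338, others 10.055 to 10.077) and Ccnb2 (10.254, others 9.979 to 10.018). Replicate 4 at 120 min was set apart in 3: it was high for Pdf (8.780, others 8.028 to 8.069) and low for Errfi1 (10.736, others 11.140 to 11.201) and Rgs4 (10.150, others 10.809 to 10.939).

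At 0 min, replicate 4 (preparation 2 duplicate 2) was set apart in 5 genes, low in each: Bdnf (6.425, others 7.019 to 7.071), Slc16a3 (10.202, others 11.086 to 11.187), Egln3 (10.872, others 11.619 to 11.727), Cry2 (9.100, others 9.393 to 9.429) and Gadd45b (8.930, others 9.230 to 9.232). Replicate 3 at 0 min was set apart for Fos only (8.580, others 8.795 to 8.830).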

How the results depend on the processing

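The count of 1336 probe sets at 120 against 0 min became 645 without the replicate block (preparation), 305 on the deposited scale, 2467 with 40 arrays and the duplicates as a random block, and 1015 to 1763 when single arrays were left out, lowest without 0 min replicate 3 and highest without 0 min replicate 4. The deposited scale moved the median change of all probe sets from -0.02 to -0.12. For the difference between the arms, 0 probe sets passed with or without the replicate block, 1 on the deposited scale, 1 with a constant of 64, 25 without a filter, 50 with the random block, 123 without the 2 arrays out of place and 0 to 7 without single arrays. For 120 against 60 min, the count of 0 became 1 without the replicate block, 1 with a constant of 64, 8 without a filter, 1 with the filter at the 60th percentile, 59 with the random block and 0 to 4 without single arrays. Of 207 named probe sets, 129 passed: 53 of these lost their call without the replicate block, 68 on the deposited scale, 17 with arrays centred on their medians, 30 without a filter and 31 with only the groups compared. None of the 129 changed sign in any of the settings run. With n = 2 preparations per group, changes under about 0.26 lie within the 95% interval of a typical probe set.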

Other observations

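Some groups of genes moved little at 120 min of ischemia+reperfusion. Of 19 cytosolic ribosomal proteins tested, 0 were called, with a median change of 0.01 (limma; lowest adjusted p 0.344, Rps15). Of 28 proteasome and ubiquitin genes, 0 were called (median -0.10), and without replicate 3 Sqstm1, the autophagy receptor p62, passed (0.32, adjusted p = 0.0402). Of 13 BCL2 family and caspase genes, 0 were called, and without replicate 3 Bcl2a1, an inhibitor of cell death, passed (0.43, adjusted p = 0.0352). Of 27 collagens and matrix remodelling enzymes, Lox, the lysyl oxidase that crosslinks collagen, alone rose: 11.59, 11.49, 11.27 and 10.92 at 0 min against 12.12, 11.92, 12.21 and 12.02 at 120 min (change 0.75 ± 0.16, adjusted p = 0.0254, limma).

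Txnip, which binds thioredoxin and limits glucose uptake, had an uneven course in the arm. Its mean was 12.08 at 0 min, 11.30 at 10, 11.00 at 30, 11.52 at 60 and 11.84 at 120, with 11.98, 11.01, 11.87 and 12.50 on the 120 min arrays (change -0.24 ± 0.21, adjusted p = 0.55, limma). The 4 tested members of its family had median changes of -0.64 at 10 min, -0.79 at 30, -0.37 at 60 and -0.10 at 120, and 0 passed at 120 min. Cspg4, the pericyte proteoglycan NG2, rose by 0.87 ± 0.19 and was the only called member of 10 smooth muscle and pericyte markers.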
